A study of Mus musculus with 6 samples.

Results

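Zinc transporters and metallothioneins were described in sorted Nestin-expressing cells of the neonatal mouse cerebellum. The 10 genes were taken by symbol from a table of 19630 genes and all 10 were found. They are the importers *Slc39a12*, *Slc39a1*, *Slc39a6*, *Slc39a10* and *Slc39a14*, the exporters *Slc30a1* and *Slc30a10*, and the metallothioneins *Mt1*, *Mt2* and *Mt3*. They were selected on the measured difference between irradiated and control libraries, in which 1 importer stood out from its family, so that comparison is a description for them and supports nothing further. The cells came from Swiss webster mice carrying 1 Nes-CFP reporter allele (Nes-CFP/+), in which a cyan fluorescent protein marks cells that express *Nes*, the gene of the intermediate filament protein Nestin. CFP-positive cells were sorted from dissociated cerebella at postnatal day 5, and their RNA was sequenced after poly(A) selection. One group of 3 libraries came from mice that received irradiation on postnatal day 1, and the control group of 3 from mice without irradiation, and all carried the reporter. The sources used here give neither the radiation dose nor whether animals were pooled. The p-values thus measure the spread between these libraries, which may be technical.

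Zinc enters the cytosol through transporters of the SLC39 (ZIP) family and leaves it through those of the SLC30 (ZnT) family. Metallothioneins are small cysteine-rich proteins that bind zinc and copper and buffer them inside the cell. When free zinc rises, the zinc-finger factor MTF-1 binds metal response elements in promoters such as those of *Mt1*, *Mt2* and *Slc30a1* and raises their transcription. In the brain, metallothioneins are known as genes of astroglia, and *Mt3* is the form enriched in nervous tissue.

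Sequences before the start sites are shown for 5 genes. The best-known zinc-responsive genes of the set, *Mt1*, *Mt2* and *Slc30a1*, overlapped between the groups, while *Slc39a12* was 2.12-fold higher. For *Mt2* a 1.5-fold change was not excluded, and with a covariate of Y-linked gene level it was not for *Slc30a1* either, as given below. The sequences are from RefSeq on GRCm38.p6, the assembly that mm10 names, given 5′ to 3′ on the gene's strand and ending before the first annotated base of the gene in both RefSeq and GENCODE M21. Capitals mark matches to the 7-base metal response element core, searched as TGCACNC and TGCGCNC on both strands.
*Slc39a12*, chr2:14388148-14388315, plus strand: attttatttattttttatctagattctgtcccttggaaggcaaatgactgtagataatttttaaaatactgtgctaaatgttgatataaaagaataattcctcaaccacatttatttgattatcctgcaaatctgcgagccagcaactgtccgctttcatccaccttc
*Mt1*, chr8:94178839-94179081, plus strand: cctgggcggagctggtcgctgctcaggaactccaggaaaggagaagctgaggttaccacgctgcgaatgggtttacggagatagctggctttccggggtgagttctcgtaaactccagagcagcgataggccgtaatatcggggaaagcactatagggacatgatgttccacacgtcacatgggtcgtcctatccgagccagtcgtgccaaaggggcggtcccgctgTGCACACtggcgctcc
*Mt2*, chr8:94172368-94172617, plus strand: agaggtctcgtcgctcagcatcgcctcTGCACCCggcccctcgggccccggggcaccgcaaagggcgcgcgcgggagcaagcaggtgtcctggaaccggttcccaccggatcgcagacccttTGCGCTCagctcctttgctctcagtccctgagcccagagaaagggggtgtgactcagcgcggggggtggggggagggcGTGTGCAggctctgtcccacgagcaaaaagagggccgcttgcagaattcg
*Mt3*, chr8:94152357-94152606, plus strand: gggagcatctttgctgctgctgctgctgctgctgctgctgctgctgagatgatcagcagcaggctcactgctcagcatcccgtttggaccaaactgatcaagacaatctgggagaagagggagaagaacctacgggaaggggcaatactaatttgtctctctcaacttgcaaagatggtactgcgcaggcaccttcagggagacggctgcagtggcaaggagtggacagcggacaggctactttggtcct
*Slc30a1*, chr1:191906531-191906766, plus strand: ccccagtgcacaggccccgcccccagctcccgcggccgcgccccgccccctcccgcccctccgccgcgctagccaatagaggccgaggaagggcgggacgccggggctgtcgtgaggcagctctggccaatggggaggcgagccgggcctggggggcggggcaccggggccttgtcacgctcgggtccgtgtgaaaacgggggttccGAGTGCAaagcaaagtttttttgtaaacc

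RefSeq windows were matched for 8 of the 10 genes. In the 250 bases before the RefSeq start, *Mt2* held 3 core matches, *Slc30a10* 3, *Mt1* 1 and *Slc30a1* 1. A pair of the *Slc30a10* matches overlapped on opposite strands. *Slc39a12*, *Slc39a1*, *Mt3* and both *Slc39a10* windows held none. Among 32851 such windows of all genes, 21.4% held at least 1 match and 1.26% at least 3. With the 50 bases after the start included, *Mt2* had 4 matches, *Mt1* and *Slc30a10* 3 each, *Slc30a1* 2 and *Mt3* 1, and *Slc39a12* still had none. Bases further downstream were not searched, so the 1 match before the *Mt1* start is no count of all its metal response elements. A match describes letters and is no measured site.

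**Figure D1:**
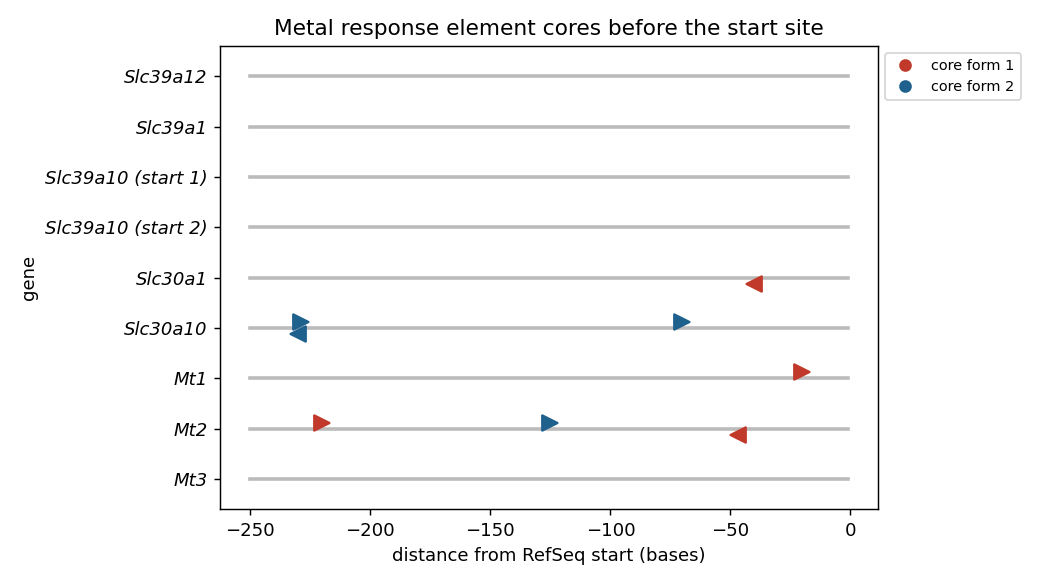
Positions of metal response element cores in the 250 bases before each RefSeq start (x axis, bases from the start) for the genes with a window (y axis). Red marks the core TGCACNC (form 1) and blue TGCGCNC (form 2), with right-pointing marks on the gene's strand and left-pointing marks on the other. *Slc39a12* has no mark, and *Mt2* and *Slc30a10* have 3 each.

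The 6 libraries held 30986269 to 37067530 reads in listed genes. Levels are given as scaled counts, that is reads divided by the size factor the authors applied. Fold changes (irradiated over control) come from limma-trend on log2(scaled count + 1), with their standard error (SE), over the 16674 genes whose mean reached 10. The threshold for a call was 0.05 on the Benjamini-Hochberg adjusted p. All 10 members passed this filter on low values. *Nes*, the gene behind the reporter, stood at 13492, 11556 and 7461 in irradiated and 10049, 8389 and 9101 in control libraries, with overlap. Markers of Bergmann glia and of granule cell progenitors were both present. The Bergmann glia list of 11 genes summed to 390925 to 618200 in irradiated and 529008 to 696570 in control libraries, and the granule progenitor list of 7 genes to 53880 to 61571 in irradiated and 55752 to 60457 in control libraries. Markers of other cell types were present too. An oligodendrocyte list of 7 genes summed to 18546.5 to 32011.5 in irradiated and 19177 to 29333 in control libraries. Pericyte, fibroblast, endothelial and microglial lists had lower sums. No marker in any list was at 0 in a library. In a sorted bulk sample a lower level per cell and fewer expressing cells cannot be told apart.

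*Slc39a12* encodes ZIP12, a zinc importer of the LIV-1 branch of the family that is enriched in brain. It stood at 649, 669 and 647 in the irradiated libraries, against 309.5, 279.5 and 339 in the controls. The lowest irradiated library was well above the highest control library, and the irradiated libraries lay within 1.03-fold of each other. The means were 655 ± 12.1 in irradiated and 309 ± 29.8 in control libraries (SD, n = 3 each). The log2 fold change was 1.08 (SE 0.14), a 2.12-fold difference with a 95% limma interval of 1.71 to 2.64. The same-numbered libraries differed by 1.07, 1.26 and 0.93 on the log2 scale, in the same direction in each.

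The change of *Slc39a12* is what brought it into the set, and its limma adjusted p of 0.0411 is given as that value. Of the 16674 genes tested, 0.054% were called (0.042% higher and 0.012% lower), and 1 of the 10 members was among them. The groups did not overlap in 1 of the 10, where 8.83% of all genes had no overlap (4.83% with irradiated higher and 4.01% lower). The rule used this contrast, so nothing is read from these counts. With the replicate number as a block, 0.15% of genes were called and the limma adjusted p of *Slc39a12* was 0.0442. Without any 1 of the 6 libraries it was no longer called, with limma adjusted p between 0.051 and 0.471 and the log2 fold change between 1.01 and 1.15. Y-linked genes summed to 3939, 5086 and 8911 in irradiated and 1536, 2303 and 5095 in control libraries, and with their level as a covariate 0.114% of genes were called, while *Slc39a12* had a log2 fold change of 1.02 (limma adjusted p = 0.0797).

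The size of the *Slc39a12* difference was set beside glial markers, since the gene is known from astroglia. Per 1000 scaled counts of the summed Bergmann glia list, it stood at 1.05, 1.23 and 1.66 in irradiated libraries, against 0.444, 0.528 and 0.593 in controls. Per 1000 of the astrocyte list, it stood at 1.86, 2.25 and 2.63 in irradiated libraries, against 0.828, 0.867 and 0.954 in controls. Each sum weighs its highest genes most. For Bergmann glia the highest was *Slc1a3*, with means of 199173 in irradiated and 219189 in control libraries. For astrocytes it was *Sparcl1*, with 145202 in irradiated and 173320 in control libraries. Since the rule used the same *Slc39a12* values, these ratios are a description. Of the 11 Bergmann glia genes 10 had a lower fitted level in irradiated libraries (median log2 fold change -0.31) and of the 13 astrocyte genes 11 did (median -0.18). None was called by limma, and 3 of each list had an unadjusted p below 0.05, where 0.054% and 4.5% of all genes tested did and 49.4% had a fitted value above 0. Lower fitted levels were not particular to glial lists. They were found in 8 of 8 fibroblast, 7 of 8 endothelial and 4 of 5 pericyte genes (medians -0.19, -0.22 and -0.31). In the remaining lists 4 of 7 oligodendrocyte, 3 of 7 granule progenitor and 2 of 8 microglial genes were lower. A choroid plexus and ependyma list of 9 genes summed to 2391 to 5346 in irradiated and 1700.5 to 2261 in control libraries. Most of the range came from *Ttr*, at 79.2, 39.4 and 2658 in irradiated and 50.4, 190.0 and 13.7 in control libraries. Without *Ttr* the other 8 genes summed to 2312, 2749 and 2688 in irradiated and 2168, 2071 and 1687 in control libraries, with no overlap. By mean, the largest part of this sum was *Foxj1*, at 1243 in irradiated and 888 in control libraries. *Otx2* came next, at 843 in irradiated and 712 in control libraries. *Clic6* had the lowest limma p of the list. It stood at 169.9, 243 and 269 in irradiated and 91.3, 72.8 and 104 in control libraries. Its log2 fold change was 1.33 (SE 0.24, limma adjusted p = 0.169). The list was mixed: of its 8 tested genes, *Ttr* among them, 5 moved up and 3 down in the fit (median 0.16). The groups did not overlap in 2 of these 8, where 8.83% of all genes tested had no overlap. The part of the glial and the choroid and ependymal marker levels in the *Slc39a12* difference was not tested.

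**Figure D2:**
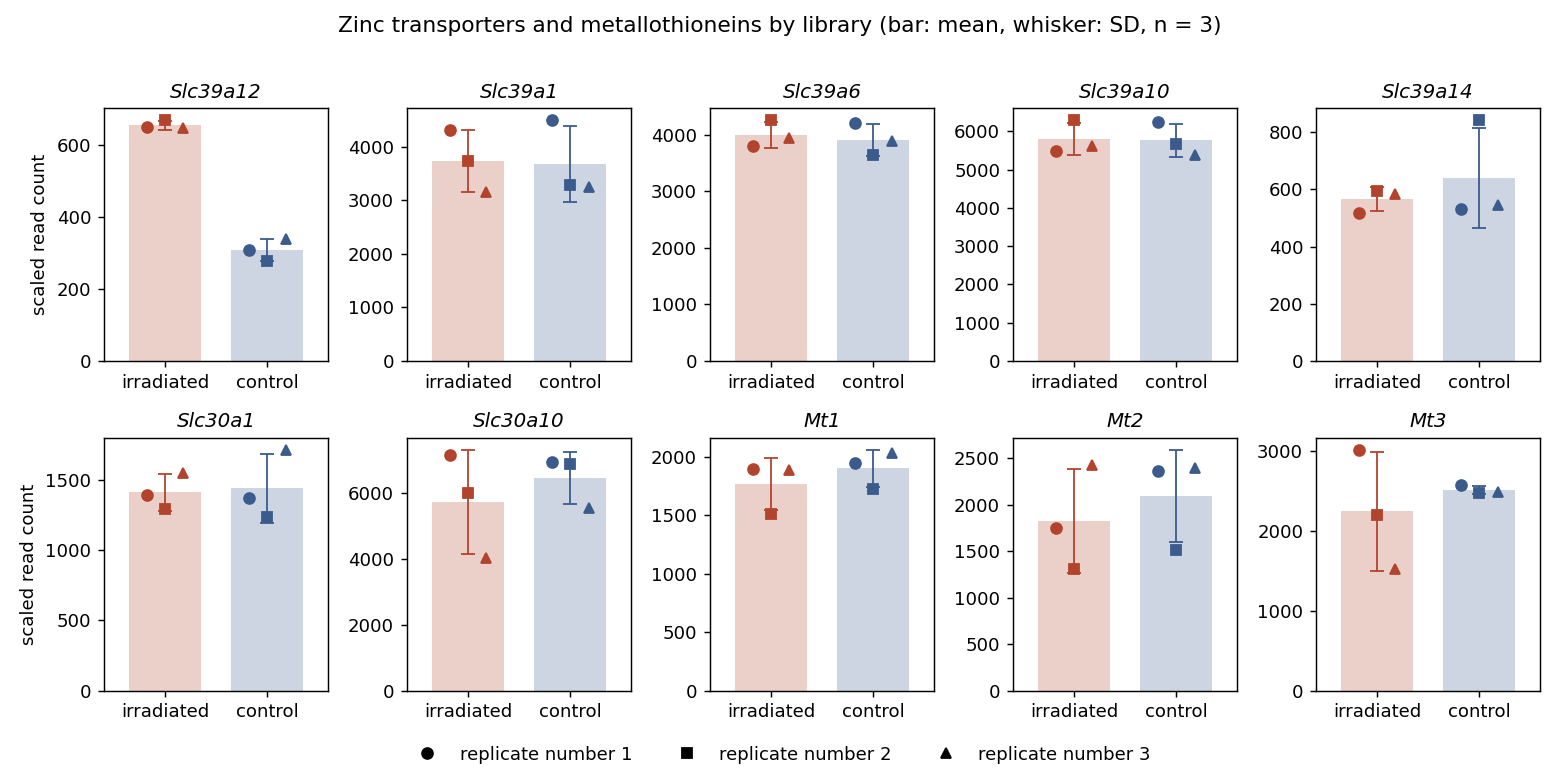
Scaled read counts (y axes, from 0) of the 10 genes in irradiated (left) and control (right) libraries. Points are libraries, with the marker shape giving the replicate number, bars are means and whiskers SDs (n = 3 each). The *Slc39a12* points of the groups are far apart, at 647 to 669 in irradiated and 279.5 to 339 in control libraries, and those of the other 9 genes overlap.

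The other 4 importers overlapped between the groups. *Slc39a1*, the gene of the plasma membrane importer ZIP1, stood at 4306, 3735 and 3157 in irradiated and 4489.5, 3286 and 3253 in control libraries. In both groups the library numbered 1 was the highest and the one numbered 3 the lowest, and the log2 fold change was 0.027 (SE 0.16). *Slc39a6* and *Slc39a10* encode ZIP6 and ZIP10, LIV-1 importers that are known to form a complex with each other. *Slc39a10* stood at 5489, 6284 and 5623 in irradiated and 6231, 5671 and 5385 in control libraries (log2 fold change 0.0092, SE 0.10). *Slc39a6* stood at 3795, 4251 and 3943 in irradiated and 4208, 3645 and 3882 in control libraries (log2 fold change 0.032, SE 0.10). In these genes the second library was the highest of the irradiated ones and the first the highest of the controls.

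*Slc39a14* encodes ZIP14, which carries manganese and iron as well as zinc. It stood at 517, 596 and 584 in irradiated and 529.8, 841 and 546 in control libraries. Control replicate 2 stood apart at 841, and the other 5 libraries lay between 517 and 596. The log2 fold change was -0.15 (SE 0.19) with all libraries and 0.069 without control replicate 2.

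Of the exporters, *Slc30a1* encodes ZnT1, the zinc exporter of the plasma membrane. It stood at 1391, 1289.6 and 1550.2 in irradiated and 1371, 1238 and 1712 in control libraries (log2 fold change -0.022, SE 0.14). The libraries kept the same order by number in both groups. *Slc30a10* encodes ZnT10, known in human and mouse as a manganese exporter. It stood at 7135, 6001 and 4024 in irradiated and 6921, 6863 and 5537 in control libraries, lowest in the library numbered 3 of each group. The log2 fold change was -0.20 (SE 0.19), -0.38 without irradiated replicate 1 and 0.030 without irradiated replicate 3.

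The metallothioneins bind the zinc that the transporters move. *Mt1* stood at 1894, 1509 and 1891 in irradiated and 1947, 1725 and 2030.1 in control libraries. *Mt2* stood at 1745, 1307 and 2420.0 in irradiated and 2362, 1517 and 2392 in control libraries. Both genes were lowest in the library numbered 2 of each group, and the groups overlapped. The log2 fold change was -0.11 (SE 0.13) for *Mt1* and -0.21 (SE 0.24) for *Mt2*. *Mt1* was lower in the irradiated library of each of the 3 numbers, by differences of -0.040, -0.19 and -0.10 on the log2 scale, and its limma p with the replicate block was 0.221 before adjustment.

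*Mt3* stood at 3012, 2203 and 1523 in irradiated and 2574, 2475 and 2488 in control libraries. The controls lay within 1.04-fold of each other and the irradiated libraries spread over 1.98-fold, on both sides of them. The log2 fold change was -0.22 (SE 0.21). Without irradiated replicate 1 it was -0.46 (limma adjusted p = 0.624). The limma interval there ran from -0.82 to -0.088 and thus left out equal levels. Without irradiated replicate 3 the log2 fold change was 0.036. That library was also the lowest of the 6 for *Slc30a10*, for the summed Bergmann glia markers at 390925, and for the summed astrocyte markers at 246206, where the other irradiated libraries had 296813 and 349067 and the controls 322503 to 373802. It was the highest of the 6 for the summed Y-linked genes, at 8911, and with these as a covariate the log2 fold change was 0.085 for *Mt3* and 0.19 for *Slc30a10*. The part of the glial marker levels in the spread of *Mt3* and *Slc30a10* was not tested. As a share of *Mt1*, *Mt2* and *Mt3* together, *Mt3* made up 45.3%, 43.9% and 26.1% in irradiated and 37.4%, 43.3% and 36.0% in control libraries. The 3 genes summed to 6651, 5019.5 and 5834 in irradiated and 6883, 5717 and 6911 in control libraries.

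Leaving *Slc39a12* aside, the 9 other members had log2 fold changes between -0.22 and 0.032, and the lowest limma p among them was 0.323 before adjustment. Without a block or covariate, the 95% limma interval of each of the 9 excluded a 2-fold change in either direction, and for 6 of them, the exceptions being *Slc30a10*, *Mt2* and *Mt3*, a 1.5-fold change. With the replicate block it excluded 2-fold for all 9 and 1.5-fold for 8, the exception being *Mt3* (-0.61 to 0.18). With the covariate of Y-linked level it excluded 2-fold for 8 and 1.5-fold for 4. There *Mt2* had an interval of -1.10 to 0.18, *Slc39a1* one of -0.0009 to 0.66 and *Slc30a1* one of -0.59 to 0.10 on the log2 scale. The widest without a block or covariate was that of *Mt2*, from -0.75 to 0.33 on the log2 scale. These intervals bound the size of any difference and do not show that the genes were unaffected.

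Levels were set in order as scaled counts per kilobase of the longest principal transcript in the annotation. *Mt3*, *Mt2* and *Mt1* were the highest of the 10 in both groups, at 4190.2, 3569.7 and 3214 per kilobase in irradiated and 4687, 4090.5 and 3462 in control libraries. Neighbours among these 3 overlapped. *Slc39a1* followed at 1579 in irradiated and 1555 in control libraries. *Slc39a10*, *Slc39a6* and *Slc30a10* lay together at 980.1 to 1055 in irradiated and 1008 to 1104 in control libraries, with overlapping neighbours, and *Slc30a1* at 269 in irradiated and 275 in control libraries. *Slc39a12* changed place: it stood at 245 per kilobase in irradiated libraries, overlapping *Slc30a1* and above *Slc39a14* at 115, and at 116 in control libraries, overlapping *Slc39a14* at 129.7. In its level per length it thus remained among the lowest of the 10 in both groups. Per kilobase of merged exons, *Mt2* was the highest of the 3 metallothioneins and *Slc39a1* came before *Mt1* in both groups.

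**Figure D3:**
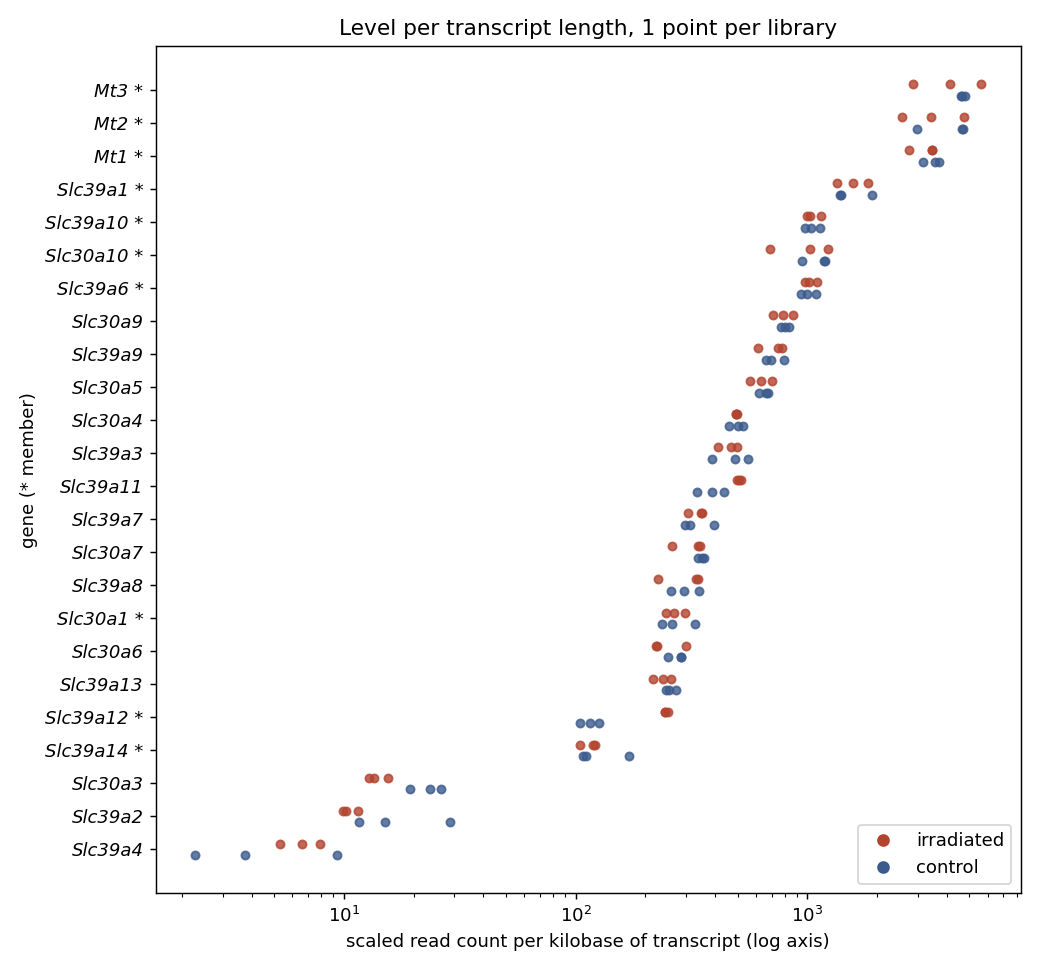
Scaled read count per kilobase of transcript (x axis, log scale) of the 24 zinc transporter and metallothionein genes of the table (y axis, by mean, members starred), with 1 point per library. The metallothioneins lie to the right of all transporters, and *Slc39a12* is the starred gene whose irradiated and control points separate.

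The remaining genes of the SLC39, SLC30 and metallothionein families were listed by name and not by how they moved. Of these 18 genes, 14 were in the table and tested. *Slc39a5*, *Slc30a2*, *Slc30a8* and *Mt4* were not analysed here. None of the 14 was called by limma in either direction, the lowest adjusted p being 0.816, and 2 had an unadjusted limma p below 0.05, where 4.5% of all genes tested did. Their median log2 fold change was -0.034, against -0.0028 over all genes tested, with 3 of 14 above 0 where 49.4% of all genes were. The groups did not overlap in 3 of the 14, where 8.83% of all genes tested had no overlap.

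*Slc39a11*, which encodes the zinc importer ZIP11, had the lowest p of the 14. It stood at 1328, 1349 and 1379 in irradiated and 1166, 887 and 1033 in control libraries, with no overlap. The log2 fold change was 0.40 (SE 0.13, limma adjusted p = 0.816). *Slc30a3*, the gene of the synaptic vesicle zinc transporter ZnT3, stood at 32.3, 26.9 and 28.2 in irradiated and 49.3, 55.1 and 40.3 in control libraries. Its levels were low in every library, and it did not pass either (log2 fold change -0.70, SE 0.26, limma adjusted p = 0.978). The third gene without overlap was *Slc39a2*, with 23.2 to 26.9 in irradiated and 27.3 to 66.9 in control libraries, named after its values were seen. Exons of *Slc39a2* overlap exons of *Mettl17* on the same strand, and how reads in shared bases were counted is not stated.

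The highest of the 14 per kilobase of the longest principal transcript were *Slc30a9*, *Slc39a9* and *Slc30a5*, while per kilobase of merged exons *Slc30a4* was the highest in both groups. *Slc30a9* stood at 4491 ± 453 in irradiated and 4564 ± 163 in control libraries. *Slc39a9* stood at 3712 ± 459 in irradiated and 3729 ± 347 in control libraries, and *Slc30a5* at 2010.2 ± 227 in irradiated and 2071 ± 89.8 in control libraries (SD, n = 3 each). In all 3 the groups overlapped. The 95% interval excluded a 2-fold change for 11 of the 14, the exceptions being the 3 of lowest level, *Slc30a3*, *Slc39a2* and *Slc39a4*.

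**Figure D4:**
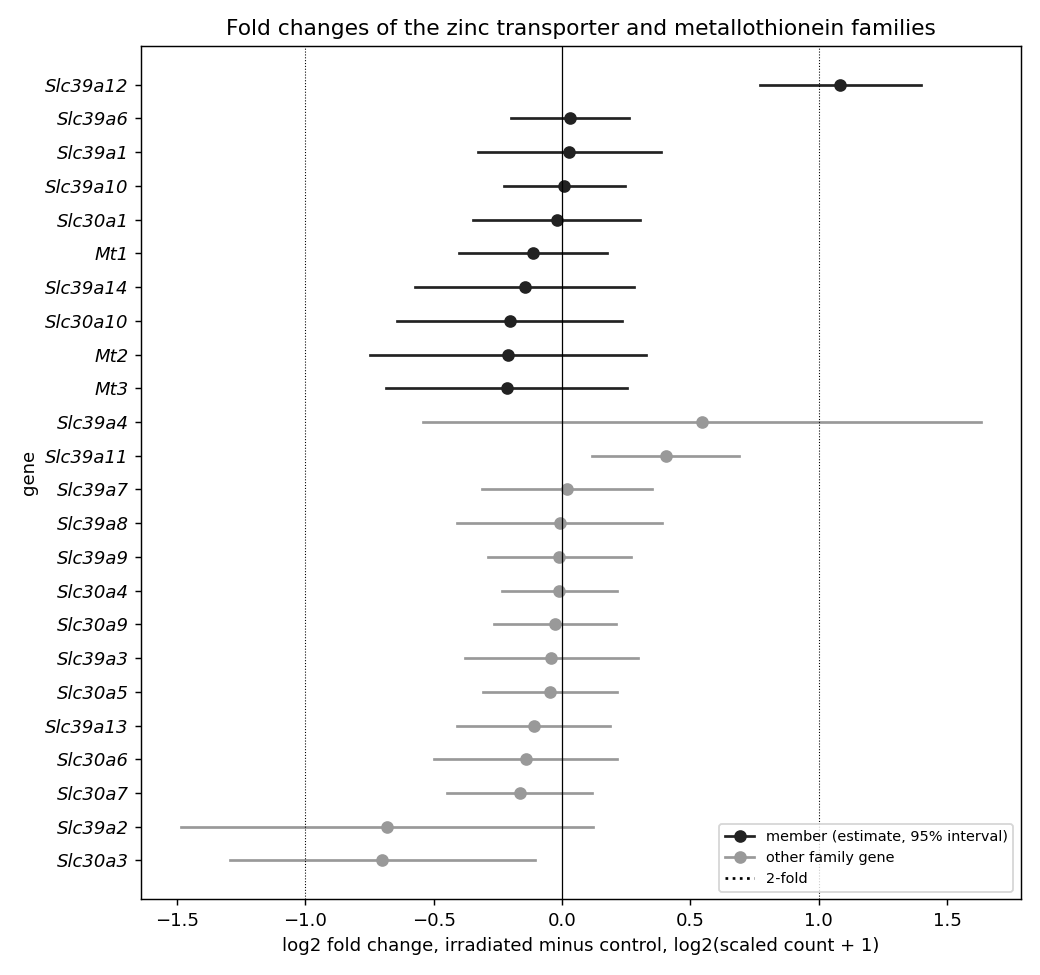
Log2 fold changes, irradiated minus control (x axis), of the 10 members (black) and the 14 other family genes (grey), with 95% limma intervals, and dotted lines at a 2-fold change. *Slc39a12* lies at 1.08 with an interval of 0.77 to 1.40, and the other 9 members lie between -0.22 and 0.032.

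Other genes that sense, carry or store zinc, iron, copper or manganese were compared next, from a list of 29 of which 27 were tested. By limma none was called in either direction, where 0.054% of all genes were, and 1 had an unadjusted p below 0.05, where 4.5% of all genes did. The fitted level was higher with irradiation in 11 and lower in 16, and the median log2 fold change was -0.024. *Mtf1*, the gene of the metal sensor MTF-1 itself, stood at 1116, 915 and 771 in irradiated and 775, 948 and 1021 in control libraries, with overlap. *Cp*, encoding the copper-carrying ferroxidase ceruloplasmin, had the lowest p. It stood at 473, 444 and 486 in irradiated and 650.5, 657 and 567 in control libraries, with no overlap (log2 fold change -0.42, SE 0.13, limma adjusted p = 0.831). The iron carrier gene *Trf* came next, at 507 ± 114 in irradiated and 645 ± 92.7 in control libraries. The highest member was *Fth1*, the ferritin heavy chain gene, at 12501 ± 1111 in irradiated and 12746 ± 1184 in control libraries.

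Metallothionein genes are also known to respond to glucocorticoids and to oxidative stress. Of 12 glucocorticoid-responsive genes, 1 was called lower and none higher, where 0.012% of all genes were called lower and 0.042% higher. The fitted value was lower in 9 and higher in 3 (median log2 fold change -0.18), where it was higher in 49.4% of all genes. The called gene was *Fam107a*, at 534, 485 and 454 in irradiated and 946, 1045 and 1163 in control libraries (log2 fold change -1.10, SE 0.14, limma adjusted p = 0.035). It was known to have changed when the list was written, and it was called without irradiated replicate 1 but not without any of the other 5 libraries (limma adjusted p of 0.0626 to 0.33). *Hsd11b1*, whose enzyme regenerates active glucocorticoid, stood at 84.4, 96.3 and 89.7 in irradiated and 127, 152 and 165 in control libraries, with no overlap (limma adjusted p = 0.65). The glucocorticoid receptor gene *Nr3c1*, the highest of the list, stood at 4198 ± 699 in irradiated and 4748 ± 219 in control libraries.

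Of 11 tested genes of the NRF2 oxidative stress response, none was called by limma, where 0.054% of all genes were, and 1 had an unadjusted p below 0.05, where 4.5% did. The fitted level was higher with irradiation in 8 and lower in 3, where it was higher in 49.4% of all genes, and the median log2 fold change was 0.066. The quinone reductase gene *Nqo1* stood at 1178, 812 and 627 in irradiated and 1445, 1093 and 1203 in control libraries. *Nfe2l2*, the gene of NRF2, stood at 1424, 1081 and 963 in irradiated and 748, 988 and 967 in control libraries. Both overlapped between the groups and neither was called by limma. The highest member, the thioredoxin reductase gene *Txnrd1*, stood at 8668 ± 1276 in irradiated and 8114 ± 578 in control libraries.

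The genes of most similar profile were found by the root mean square difference of centred log2 values over the 6 libraries, among 12373 genes whose mean reached 50, without predicted, mitochondrial and ribosomal protein genes. For *Slc39a12* they were *Eda2r*, *Ddit4l*, *Icmt*, *Zak* and *Mgmt*, at differences of 0.19 to 0.22, where the profile of *Slc39a12* itself departed from its mean by 0.55. *Eda2r*, which encodes the ectodysplasin A2 receptor of the tumour necrosis factor receptor family, stood at 2099.5, 2195 and 1644 in irradiated and 808, 1002 and 1134 in control libraries. *Mgmt*, which repairs alkylated guanine, stood at 118, 99.4 and 114 in irradiated and 68.2, 59.1 and 49.8 in control libraries. All 5 were higher in every irradiated library, which the choice by profile implies, and none was called (limma adjusted p of 0.133 to 0.507). For *Mt1* the nearest were *Nenf*, *Timm10* and *Chchd7*, at 0.042 to 0.047, and for *Slc39a1* they were *Entpd5*, *Gnai2* and *En1*, at 0.039 to 0.042. These shared the low second libraries of *Mt1* and the high first libraries of *Slc39a1*.

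**Figure D5:**
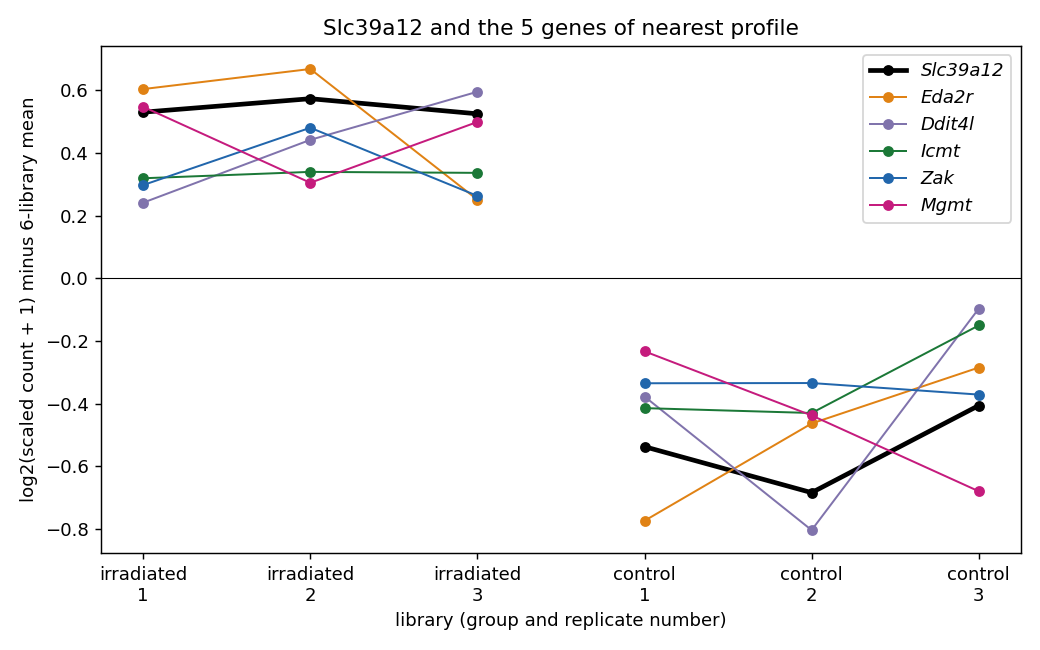
Log2(scaled count + 1) minus its 6-library mean (y axis) of *Slc39a12* (black) and the 5 genes of nearest profile in the 3 irradiated and the 3 control libraries (x axis), with lines joining libraries of 1 group only to guide the eye. *Slc39a12* lies between 0.52 and 0.57 in irradiated and between -0.68 and -0.41 in control libraries.

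In GRCm38 coordinates of GENCODE M21, *Slc39a12* (ENSMUSG00000036949.16) spans bases 14388316 to 14494977 of chromosome 2, plus strand. The metallothioneins lie in a row on the plus strand of chromosome 8, *Mt3* from 94152607 to 94154146, *Mt2* from 94172664 to 94173568 and *Mt1* from 94179082 to 94180327. Chromosome 1 holds *Slc39a10* from 46807544 to 46892852 on the minus strand, and *Slc30a10* from 185454848 to 185468762 and *Slc30a1* from 191906767 to 191913247 on the plus strand. *Slc39a1* lies on chromosome 3 from 90248172 to 90253612 (plus strand), *Slc39a14* on chromosome 14 from 70303469 to 70351425 (minus) and *Slc39a6* on chromosome 18 from 24579881 to 24603817 (minus). The annotation gives each of the 10 as protein-coding. Exons of *Slc30a1*, *Slc30a10* and *Mt2* overlap exons of an annotated gene on the opposite strand, and with the strand setting of the counting not stated, their reads cannot be separated. Of the other family genes named, the same holds for *Slc39a9* and *Slc30a4*. The longest identical run between annotated coding transcripts was 20 bases for *Mt1* and *Mt2*, 27 for *Mt1* and *Mt3*, and 20 for *Mt2* and *Mt3*.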

How the data were processed

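RNA-seq of 6 libraries of sorted Nes-CFP cells was used, 3 irradiated and 3 control, made from 100 ng of RNA each per the labels' protocols. HTSeq, DESeq and mm10 stand in the submitters' processing notes, without version or role. The aligner and strandedness are not stated. The deposited unit is a signal, by the values themselves a read count divided by a size factor (0.953 to 1.16), to which the authors added 1. Once this 1 was subtracted, 100% of values in each library were whole multiples of the value of 1 read, within 0.001 reads. Library totals come from these multiples. Chi-square per degree of freedom was 17.5 to 58.5 between libraries of 1 group and 17.0 to 67.6 between libraries of different groups. No pair thus looked like 1 library deposited again. The closest pair crossed the groups, irradiated replicate 1 and control replicate 1. Symbols turned into dates in 25 rows were restored by gene ID, and 19542 gene IDs matched GENCODE M21.

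On log2(scaled count + 1), the two-sided test of limma-trend was run (version 3.58.1 under R 4.3.3) in genes whose mean reached 10, and checked on simulated data. The simulated counts had the same dispersion in every gene and no effect of replicate number or Y-linked level. They thus do not stand for the spread of these libraries. For low genes the added 1 makes fold changes too small. The members and the gene lists were chosen with earlier results of these data known. The text names all members, and in each other list the called genes, the gene of highest level and those of lowest limma p. Some further genes, *Mtf1* and *Slc39a2* among them, were named after their values were seen. Alternatives were the pseudocounts 0.5 and 5, no filter, a mean of at least 50, the replicate block, a covariate of Y-linked level, each library left out and, added after seeing the data, scaling to the library total.

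Groups share replicate numbers. Over genes, which are no independent replicates, same-numbered libraries deviated together from their group means (correlations 0.305, 0.151 and 0.451). Each exceeded 0.1, so pairing by number was taken as possible and entered as the replicate block, an alternative. The main test left the pairing out, and its SEs, intervals and calls are unpaired. With the block the SE of each member was smaller, for *Mt2* 0.11 against 0.24. That pairing comes from the data, not the labels. Promoter windows of *Slc39a6* and *Slc39a14* were not used here.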

Additional observations from a re-analysis of the deposited data

How the results depend on the processing

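Over the 10 members, *Slc39a12* kept its direction in all 13 alternatives run. It missed the threshold when only genes whose mean reached 50 were tested (limma adjusted p = 0.057), with the covariate of Y-linked level (limma adjusted p = 0.0797) and without each library in turn (log2 fold change 1.01 to 1.15), so the count of called members was 0 there and 1 in the others. Without 1 library the number called among all genes ran from 1 to 29, among members it was 0, and among glucocorticoid genes 0 to 1. All genes called numbered 25 with the replicate block and 19 with the Y-linked covariate, against 9 in the main test. The block changed no call among members or in the other zinc family, metal handling, glucocorticoid and oxidative stress lists. No gene of the other zinc family, metal handling or oxidative stress lists was called in any alternative.

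With the Y-linked covariate, fitted signs turned for *Slc30a10* (0.19), *Mt3* (0.085), *Slc30a9* (0.098), *Slc39a9* (0.20), *Slc30a5* (0.089), *Nr3c1* (0.0078) and *Txnrd1* (-0.081), and the cause was not tested. Without 1 library, fitted log2 fold changes spanned 0 for some genes, from -0.082 to 0.18 for *Slc39a1*, -0.018 to 0.086 for *Slc39a6*, -0.050 to 0.067 for *Slc39a10*, -0.26 to 0.069 for *Slc39a14*, -0.12 to 0.11 for *Slc30a1*, -0.38 to 0.030 for *Slc30a10*, -0.44 to 0.0061 for *Mt2*, -0.46 to 0.036 for *Mt3*, -0.10 to 0.045 for *Slc30a9*, -0.078 to 0.095 for *Slc39a9*, -0.13 to 0.033 for *Slc30a5* and -0.11 to 0.047 for *Fth1*. The planned edgeR, DESeq2 and TMM alternatives were not run. With 3 libraries a group, a 1.5-fold difference of *Mt3* was within the error in the main test and with the replicate block. One of *Mt2* or *Slc30a10* was within it in the main test but not with the block. Of the 9 members other than *Slc39a12*, 1.5-fold was excluded for 4 with the Y-linked covariate and for 5 to 7 without 1 library. With scaling to the library total it was excluded for 5, and the interval of *Slc39a14* was -0.61 to 0.31 on the log2 scale.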
